A study of Sus scrofa with 4 samples.

Results

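Messenger RNA of 5 growth factor and receptor genes was compared between cultured fibroblasts of deep and shallow skin wounds. The genes were the ligands FGF7 and FGF2 and the receptors PDGFRB, FGFR1 and EGFR. They were chosen by name from a list of 10, as those with an array probeset annotated to that symbol alone. PDGFA, PDGFC, PDGFRA and HGF had no such probeset. MET was annotated to a probeset that carries 2 gene identifiers, both under the symbol MET, and the rule left it out. These 5 genes are not analysed here, so the group held no PDGF ligand and neither gene of the HGF pair. The 5 genes had 10 probesets among 23999, and 8 of the 10 passed the filter on dim probesets. The filter was set on the mean log2 signal, at the log2 of 27.1 intensity units. The array named 6765 genes under a single symbol.

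The cells were dermal cone fibroblasts of 2 Duroc pigs, grown out of back wounds biopsied at 20 weeks. The shallow group was 1 culture from a shallow wound of each pig, and the deep group was 1 culture from a deep wound of each pig. All 4 cultures were grown to confluence in medium with fetal bovine serum, and RNA of each was hybridized to 1 porcine Affymetrix array. No unwounded skin was among the samples, no further treatment was named, and the sources used here do not give the pigs' ages. The titles give each sample's partner by a number, read here as the order of listing, and this reading sets which arrays are called pig 1 and pig 2.

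Fibroblasts grow and migrate in response to secreted factors that bind receptor tyrosine kinases on the cell surface. A bound receptor pairs with another, phosphorylates itself and recruits adaptors that start the RAS-ERK and PI3K-AKT relays. PDGF drives fibroblasts into healing wounds. FGF7, also called keratinocyte growth factor, is made by fibroblasts and acts on the epidermis above them, and FGF2 acts on fibroblasts and on growing vessels.

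FGF7 and FGF2 read higher in the cells of deep wounds than of shallow wounds in each pig, and so did PDGFRB and EGFR. The difference was 3.03-fold for FGF7, 1.55-fold for FGF2, 1.51-fold for PDGFRB and 1.33-fold for EGFR by the brightest probeset. FGFR1 read higher in one pig and lower in the other. None of the 5 genes passed the test across all probesets (limma, adjusted p under 0.05), a call that 0.34% of the 14399 tested probesets received. FGF7 came nearest, at an adjusted p of 0.0771. At an unadjusted p under 0.05 the count was 1 of 5 genes, FGF7, and 3 of the 8 tested probesets of these genes, beside 1995 of all 14399. In 4 of the 5 genes both deep arrays lay above both shallow arrays, an arrangement that 23.2% of all tested probesets also had. The reverse arrangement, with both deep arrays below, was found in 25.5% of them and in none of the 5.

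**Figure D1:**
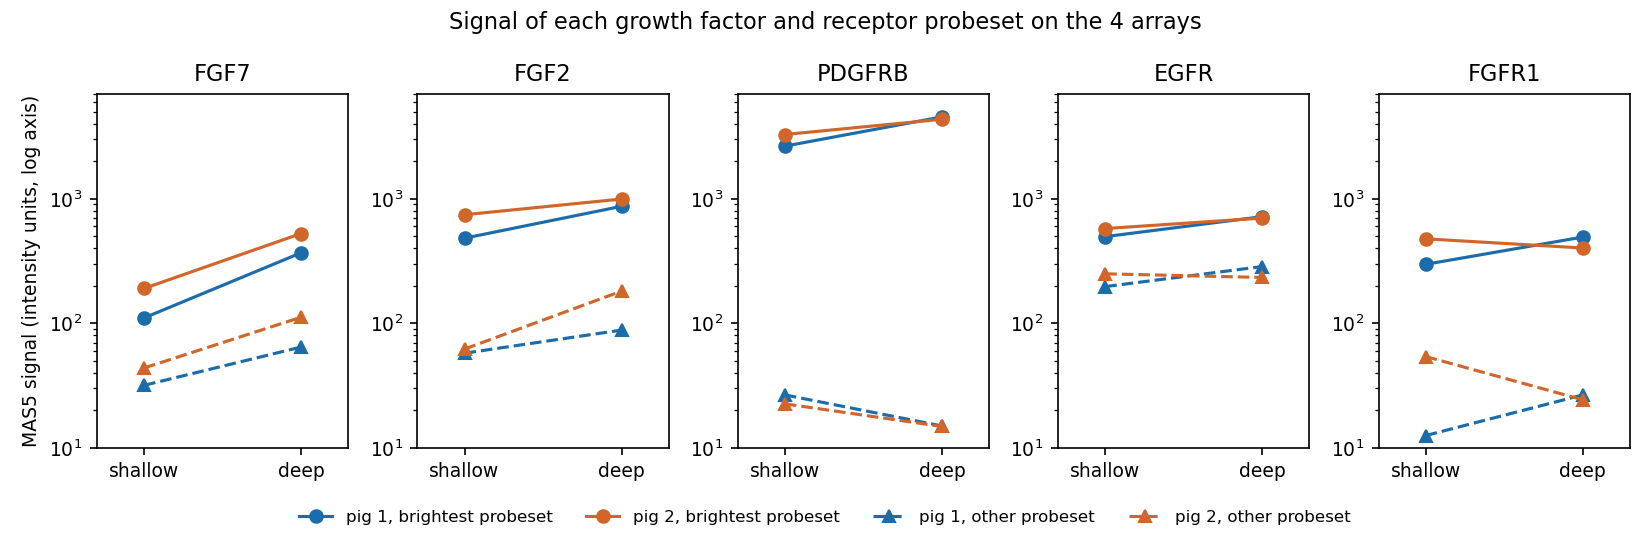
Signal of both probesets of each gene (y axis, MAS5 intensity units, log axis) in shallow and deep cultures (x axis), with 1 line per pig and probeset. FGF7 and FGF2 lines slope upward for both probesets and both pigs, and the FGFR1 lines of the pigs cross.

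The arrays differed in control ratios and in cell type markers, and these values stand beside every result that follows. Paired values are given with pig 1 before pig 2. The 3'/5' signal ratio of the actin control probesets, which depends on RNA integrity and labelling, was 1.96 and 2.41 in shallow cells, and 3.28 and 6.10 in deep cells. The labels give high RNA integrity for every preparation. The summed signal of 10 epithelial markers was 5967 on the pig 1 shallow array and 260 to 387 on the others, and all 10 were above the absent controls there. KRT5 and KRT14 were not analysed here. The summed signal of 11 fibroblast markers other than PDGFRB was 32227 and 39719 in shallow cells and 55434 and 77649 in deep cells. All 11 were above the absent controls on every array, and all 11 read higher on both deep arrays than on both shallow arrays, with a median log2 difference of 0.99. COL1A2, a chain of collagen I, read 328 and 367 in shallow cells and 621 and 764 in deep cells. The 6 smooth muscle or pericyte markers summed to 719 and 1190 in shallow cells and 4780 and 3450 in deep cells. Most of that was ACTG2, smooth muscle gamma actin, at 492 and 717 against 4269 and 2914 (log2 difference 2.57, limma, adjusted p = 0.0351). CNN1, calponin, read 79.3 and 62.2 against 193 and 154 (1.29, limma, adjusted p = 0.155). DES, at 15.6 and 9.67 against 25.6 and 55.9, was also higher on both deep arrays, while RGS5, HIGD1B and MCAM overlapped between depths. The pig 2 shallow value of DES was below the highest absent control of that array, and DES was not tested. The 8 endothelial markers summed to 772 on the pig 1 shallow array and 286 to 446 on the others. Of these CDH5, KDR, TEK and TIE1 were below the highest absent control on every array, and PECAM1 and ESAM were above it on every array. PECAM1 read 601 and 152 in shallow cells and 223 and 281 in deep cells. CLDN5 read 114 and 56.6 against 33.6 and 16.2 (-1.78, limma, adjusted p = 0.131), and its pig 2 deep value was below the highest absent control of that array. The 7 leukocyte markers summed to 103 to 170. Of these CD14, at 33.1 to 81.5, was above the highest absent control on every array, AIF1 read 79.3 on the pig 1 shallow array, and ITGAM, TYROBP and CD74 were below the control on every array. The absent controls are 23 probesets for transcripts that pig cells lack, and the highest of them read 13.6 to 30.9, depending on the array. In RNA of a whole culture, fewer cells of a type and less RNA per cell cannot be told apart. The summed signals of 5 melanocyte and 4 adipocyte markers were 75.8 to 128 and 88.6 to 118. The part of RNA quality and of cell makeup in the differences below was not tested.

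The ligand FGF7 showed the widest difference of the 5 genes. Its brightest probeset read 111 and 191 in shallow cells and 368 and 526 in deep cells. Each deep array was above both shallow arrays, and the gap between depths was wider than the gap between pigs, which was 1.72-fold in shallow and 1.43-fold in deep. The deep cells read 3.33 times the shallow cells in pig 1 and 2.76 times in pig 2. The means were 151 ± 56.6 in shallow and 447 ± 112 in deep (SD, n = 2 each). The log2 difference was 1.60 ± 0.29 (SE; limma, adjusted p = 0.0771), with a 95% interval of 0.92 to 2.28. Among the tested probesets 3.10% had a larger absolute difference. With 1 array left out the log2 difference ran from 1.21, without the pig 1 shallow array, to 1.99, without the pig 2 shallow array. Only the latter fit called FGF7 (limma, adjusted p = 0.000242). That fit has no pig block and called 1597 probesets in all.

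A second, dimmer FGF7 probeset showed the same arrangement. It read 31.8 and 43.8 in shallow cells and 64.5 and 112 in deep cells. The deep-to-shallow ratio was 2.03 in pig 1 and 2.56 in pig 2, and again the depths did not overlap. The log2 difference was 1.19 ± 0.40 (limma, adjusted p = 0.246). All of these signals lay above the highest absent control of their array.

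FGF2, basic fibroblast growth factor, read 482 and 744 in shallow cells and 869 and 995 in deep cells. The deep arrays were again above the shallow ones, though the shallow arrays differed from each other 1.54-fold, about as much as the depths did. The deep-to-shallow ratio was 1.80 in pig 1 and 1.34 in pig 2. The group means were 613 ± 185 and 932 ± 89.0, and the log2 difference was 0.63 ± 0.28 (limma, adjusted p = 0.361; 95% interval -0.0017 to 1.27). Without the pig 1 shallow array the difference was 0.32. Without the pig 2 shallow array it was 0.95 (limma, adjusted p = 0.0373), in the same fit that called 1597 probesets.

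The second FGF2 probeset read 57.5 and 62.1 in shallow cells and 88.2 and 181 in deep cells. Here the shallow arrays nearly coincided and the pig 2 deep array stood above the rest, with deep-to-shallow ratios of 1.53 in pig 1 and 2.92 in pig 2. The log2 difference was 1.08 ± 0.39 (limma, adjusted p = 0.278), and it was 0.56 without the pig 2 deep array. In the Sscrofa11.1 gene table NUDT6 overlaps FGF2, and which gene's transcript each probeset reads was not checked.

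All 4 probesets of FGF7 and FGF2 were lowest on the pig 1 shallow array and highest on the pig 2 deep array, with the pig 2 shallow array and the pig 1 deep array between them in that order. The same order over the 4 arrays was found in 11.8% of all tested probesets, in 7 of the 11 fibroblast markers and in the actin ratio. The 3'/5' ratio of the GAPDH controls had it too, at 1.53, 1.67, 1.75 and 2.06. So did the 28S rRNA signal, at 1351, 1836, 3462 and 7621. The part of RNA quality in this order was not tested.

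**Figure D2:**
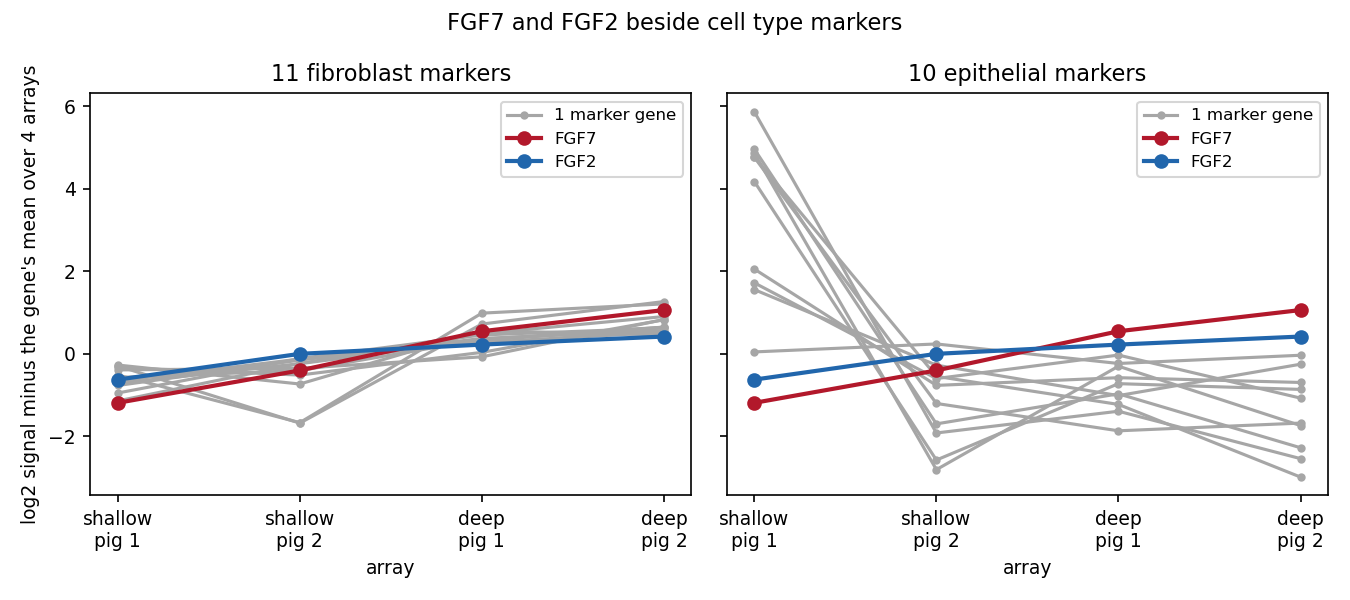
Log2 signal of FGF7, FGF2 and the markers of fibroblasts (left) and epithelial cells (right) on each array (x axis), each gene set to its own mean over the 4 arrays (y axis). Fibroblast markers are higher on the deep arrays, as are FGF7 and FGF2, and most epithelial markers are high on the pig 1 shallow array alone.

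PDGFRB, the receptor for PDGF-B on fibroblasts and pericytes, had a bright probeset on every array. It read 2646 and 3279 in shallow cells and 4542 and 4348 in deep cells. The deep arrays lay close together and above both shallow arrays. The deep-to-shallow ratio was 1.72 in pig 1 and 1.33 in pig 2. The means were 2962 ± 448 and 4445 ± 137, a log2 difference of 0.59 ± 0.28 (limma, adjusted p = 0.403; 95% interval -0.055 to 1.24). The other PDGFRB probeset ran the opposite way at the edge of detection, at 26.6 and 22.6 in shallow cells and 15.0 and 14.8 in deep cells. Both deep values were below the highest absent control, so no fold is given, and the probeset did not pass the filter. With the log2 signals of both PDGFRB probesets averaged the difference was -0.06, so the direction for PDGFRB rests on the bright probeset. The smooth muscle and pericyte markers were also higher in sum on the deep arrays, mostly through ACTG2. CNN1 and DES were higher there too, while RGS5, HIGD1B and MCAM overlapped between depths. Whether such cells were present in the cultures, and their part in the PDGFRB difference, was not tested.

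EGFR, the receptor for EGF, amphiregulin and HB-EGF, read 497 and 576 in shallow cells and 719 and 700 in deep cells. These groups did not overlap, and the deep-to-shallow ratio was 1.45 in pig 1 and 1.21 in pig 2. The means were 537 ± 56.4 and 709 ± 13.4, with a log2 difference of 0.41 ± 0.27 (limma, adjusted p = 0.555; 95% interval -0.22 to 1.03). On the second EGFR probeset the groups overlapped, at 197 and 250 in shallow and 286 and 233 in deep. That probeset differed by 0.22 ± 0.31 (limma, adjusted p = 0.809), higher in the deep culture of pig 1 and lower in that of pig 2. The pig 1 shallow array had the lowest signal on both EGFR probesets. That array read high for epithelial markers and had the lowest summed signal of the fibroblast markers, 32227. Epithelial cells carry EGFR too, and the part of cell makeup in the EGFR difference was not tested.

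FGFR1, the main FGF receptor of mesenchymal cells, showed no shared direction. It read 298 and 477 in shallow cells and 492 and 402 in deep cells. The signal was 1.65-fold higher in deep cells of pig 1 and 1.18-fold lower in those of pig 2, and the groups overlapped. The pig 1 shallow array was the low one. The log2 difference was 0.24 ± 0.32 (limma, adjusted p = 0.798; 95% interval -0.51 to 0.99), and it was -0.10 without the pig 1 shallow array, 0.58 without the pig 2 shallow array and 0.10 without the pig 1 deep array. The dim second probeset, at 12.6 and 54.1 in shallow and 26.6 and 24.3 in deep, was below the highest absent control on 2 arrays and was not tested.

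Ordered by log2 difference the 5 genes were FGF7, FGF2, PDGFRB, EGFR and FGFR1, with a median of 0.59. The median over all tested probesets was -0.02, and over all genes by their brightest probeset -0.04. The last 4 intervals overlap over most of their length, so the order among FGF2, PDGFRB, EGFR and FGFR1 is not resolved by these arrays. The FGF7 interval overlaps the top of each of the others. Beside the median of 0.99 for the fibroblast markers, FGF7 was above it and the other 4 genes were below it by the brightest probeset. The FGF7 interval of 0.92 to 2.28 includes 0.99, and the second FGF2 probeset, at 1.08, was above 0.99. Among those markers DPT, at 2.19, and THY1, at 1.98, were above FGF7, and the rest were below FGF7.

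**Figure D3:**
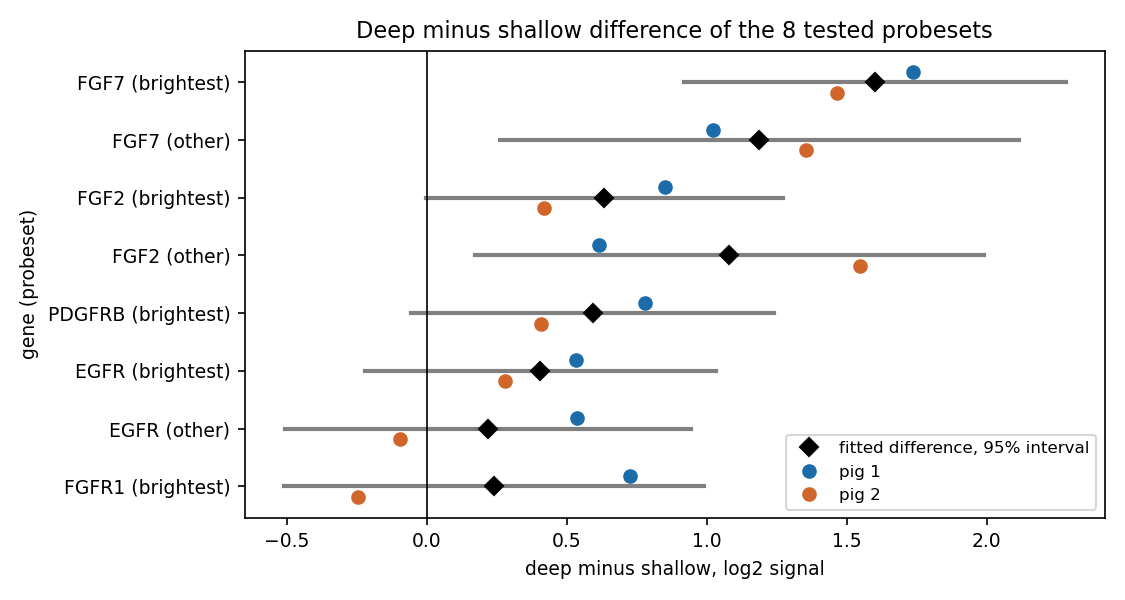
Deep minus shallow difference in log2 signal (x axis) of the 8 tested probesets (y axis), with the fitted value and its 95% interval and the value in each pig. The intervals of both FGF7 probesets and of the dimmer FGF2 probeset lie above 0, and the pigs fall on opposite sides of 0 for FGFR1 and for the second EGFR probeset.

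The genes most like FGF7 over the 4 arrays were sought among 5271 others by the root mean square difference of centred log2 signals. The nearest was TIMP2, an inhibitor of matrix metalloproteinases, at a distance of 0.0994. It read 1736 and 3314 in shallow cells and 5383 and 7768 in deep cells. FOLR1, a folate receptor, followed at 0.114, and NPY1R, a neuropeptide Y receptor, at 0.116. NPY1R read 13.8 and 22.3 in shallow cells and 39.7 and 53.1 in deep cells, and the pig 1 shallow signal was below the highest absent control. Both shallow signals were under the 27.1 intensity units of the filter. NPY1R thus entered the search only through its deep signals, and its likeness to FGF7 is not free of that selection. FGF7 was the only one of the 5 genes whose highest array was at least 4 times its lowest, the condition set for this search.

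The other genes of these pathways were followed through 8 lists with 122 genes, of which 53 were on the array and 35 passed the filter. No list member passed the test over all probesets in either direction (limma, smallest adjusted p = 0.0741, for EGR1). An unadjusted p under 0.05 was found for 8 of the 35, beside 1995 of all 14399 tested probesets. Both deep arrays were above both shallow arrays in 15 of the 35, or 42.9%, beside the 23.2% of all tested probesets. Both were below in 5, or 14.3%, beside 25.5%. The lists were chosen with earlier results of these data known, so these shares are not independent of the data. The 15 include PDGFRL, which passed the filter only through its deep signals. The median log2 difference of the 35 was 0.26. Leaving out the pig 2 shallow array, in the fit that called 1597 probesets, HBEGF, GAB1, FOSL1, JUN, MYC, ETV5 and IGF1R passed. Leaving out the pig 1 shallow array, with 172 probesets called in all, EGR1 passed.

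The PDGF and FGF family lists each had 1 tested gene, and neither passed the test. FGFR2, whose epithelial splice form is the receptor for FGF7, read 39.95 and 57.9 in shallow cells and 88.0 and 122 in deep cells. The log2 difference was 1.11 ± 0.37 (limma, adjusted p = 0.247), and the probeset was not assigned to a splice form here. Of the 5 other FGF family genes on the array, FGFR2 alone passed the filter. FGF1, FGF13 and FGF18 were below the highest absent control on all 4 arrays. PDGFRL, which resembles the ligand-binding part of a PDGF receptor, read 22.9 and 16.6 in shallow and 76.4 and 65.2 in deep. The groups lay far apart, with a log2 difference of 1.85 ± 0.45 (limma, adjusted p = 0.133), the largest among the 35 list genes. Both shallow signals were under the 27.1 intensity units of the filter, so PDGFRL entered the test only through its deep signals. Its test and its rank are not free of that selection.

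The tested EGFR ligands, HBEGF and AREG, had mean log2 differences of opposite sign, and neither passed the test. The pigs disagreed on AREG, at -0.093 in pig 1 and 1.68 in pig 2. HBEGF, heparin-binding EGF-like growth factor, read 206 and 56.9 in shallow cells and 41.7 and 46.3 in deep cells. It was high on the pig 1 shallow array alone, and its log2 difference of -1.30 ± 0.52 (limma, adjusted p = 0.320) was -0.37 without that array and -2.23 without the pig 2 shallow array. AREG, amphiregulin, read 7617 and 4907 in shallow and 7143 and 15743 in deep, so the pig 2 deep array stood above the other 3. Its difference of 0.79 ± 0.43 (limma, adjusted p = 0.463) was 0.22 without that array, 1.36 without the pig 1 deep array, 0.48 without the pig 2 shallow array and 0.19 after quantile normalization. TGFA was at 39.6 on the pig 1 shallow array, at 1.61 or less elsewhere, below the absent controls, and was not tested. ADAM17, the protease that sheds EGFR ligands from the cell surface, differed by 0.23 ± 0.32. The list median over the 3 tested genes was 0.23, and -0.36 with all probesets of a gene averaged.

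Genes that govern HGF activation were mostly at the edge of detection, and none of the 5 on the array passed the filter. ST14, the membrane protease matriptase, which cleaves pro-HGF, read 169 on the pig 1 shallow array and 1.07 to 4.14 on the others. Its inhibitor SPINT2 read 322 on the pig 1 shallow array and 2.95 to 20.6 elsewhere. Both genes were thus read above the absent controls on a single array, the one with high epithelial markers such as CDH1, at 1084 there and 7.15 to 17.7 elsewhere. The related inhibitor SPINT1 read 47.8 and 23.3 in shallow and 9.78 and 40.3 in deep.

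Downstream of the receptors, 11 adaptors, kinases and other relay genes were tested. Their median log2 difference was 0.17, with a range of -0.22 to 0.70. The median was 0.017 without the pig 1 shallow array, 0.0087 without the pig 1 deep array and 0.097 without the pig 2 shallow array. At the top was GAB1, the docking protein downstream of EGFR and MET, at 204 and 329 in shallow cells and 468 and 380 in deep cells (0.70 ± 0.33, limma, adjusted p = 0.403). It was 0.36 without the pig 1 shallow array. The adaptor GRB2 read 1254 and 1193 in shallow and 1221 and 1193 in deep, nearly level over the 4 arrays. STAT3, a transcription factor activated by cytokine and growth factor receptors, differed by 0.37 ± 0.34, and by -0.14 without the pig 1 shallow array. MAPK3, the ERK1 kinase, differed by 0.35 ± 0.32.

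Genes that restrain receptor signalling had a median log2 difference of 0.43 over 6 tested genes. CBLB, a ubiquitin ligase that marks active receptors for breakdown, read 57.5 and 62.7 in shallow cells and 132 and 130 in deep cells. Arrays of the same depth were close and the depths were apart, with a difference of 1.13 ± 0.35 (limma, adjusted p = 0.223). LRIG1, a membrane protein that lowers EGFR levels, read 64.5 and 99.4 in shallow and 102 and 183 in deep (0.77 ± 0.34). Its difference was 0.35 without the pig 2 deep array, 1.19 without the pig 1 deep array and 0.46 without the pig 1 shallow array. DUSP6, a phosphatase that switches off ERK, overlapped between depths, at 487 and 308 in shallow and 582 and 471 in deep (0.44 ± 0.28). It was 0.10 without the pig 2 shallow array, 0.77 without the pig 1 shallow array and 0.28 without the pig 1 deep array.

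Genes that growth factors switch on differed in direction. EGR1, an immediate-early transcription factor, read 1495 and 395 in shallow cells and 3609 and 1695 in deep cells. Its log2 difference was 1.69 ± 0.30 (limma, adjusted p = 0.0741), 0.73 with the pig 2 shallow array left out and 2.65 with the pig 1 shallow array left out. JUN, a component of the AP-1 transcription factor, read 531 and 530 in shallow and 1205 and 899 in deep (0.97 ± 0.27, limma, adjusted p = 0.178). ETV5, an ERK-induced transcription factor, went the other way, at 326 and 168 in shallow and 129 and 116 in deep (-0.94 ± 0.34, limma, adjusted p = 0.279), and FOS differed by 0.01 ± 0.28. The ETV5 difference was -0.46 without the pig 1 shallow array, which read high for epithelial markers, and -1.42 without the pig 2 shallow array. The list median over 8 genes was 0.19. With 1 array left out it ran from -0.067, without the pig 1 deep array, and -0.043, without the pig 2 shallow array, to 0.36 without the pig 2 deep array and 0.52 without the pig 1 shallow array.

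Among other receptor tyrosine kinases 5 of the 10 on the array passed the filter, with a median log2 difference of 0.16. The median had no stable sign, at -0.17 without the pig 2 deep array, -0.012 without the pig 2 shallow array, 0.33 without the pig 1 shallow array and 0.54 without the pig 1 deep array. It was 0.58 with the filter at the 20th percentile, 0.43 with no filter and 0.057 after quantile normalization. IGF1R, the receptor for insulin-like growth factors, read 111 and 144 in shallow and 210 and 274 in deep (0.93 ± 0.31, limma, adjusted p = 0.239). DDR1, a collagen receptor, read 170 and 173 in shallow and 262 and 250 in deep (0.58 ± 0.30). FLT1, a VEGF receptor, was lower in deep cells, at 93.7 and 64.1 in shallow and 51.8 and 52.6 in deep (-0.57 ± 0.40). That difference was -0.30 without the pig 1 shallow array.

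**Figure D4:**
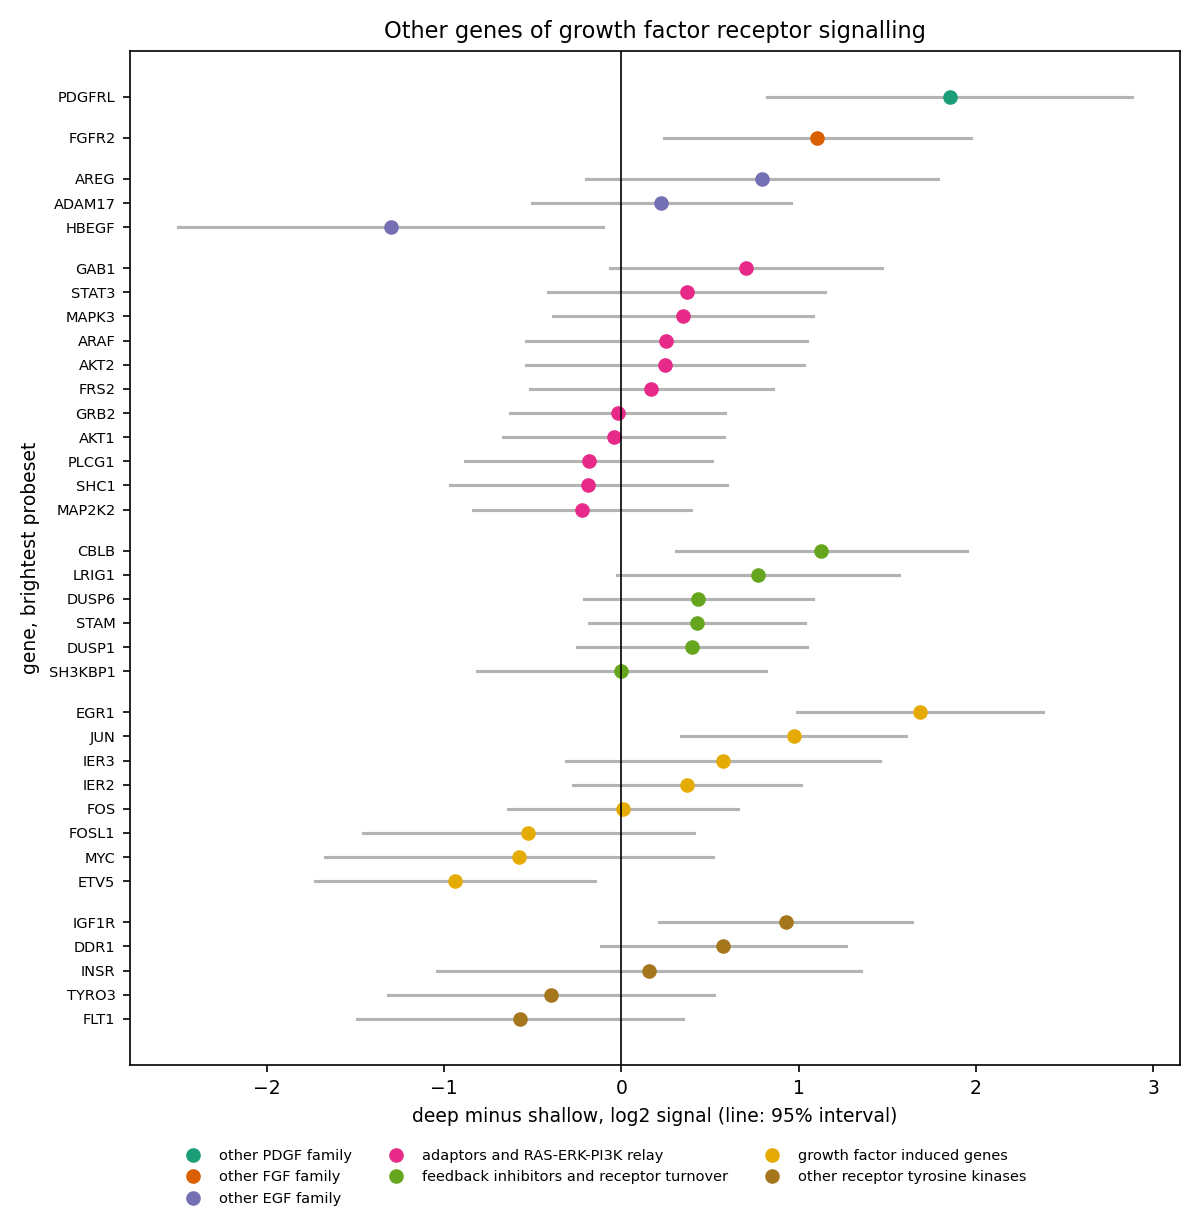
Deep minus shallow difference in log2 signal (x axis) of the 35 tested genes of the pathway lists (y axis), coloured by list, with 95% intervals. EGR1 and PDGFRL have the largest positive values and HBEGF the largest negative one, and the adaptors and kinases lie between -0.22 and 0.70.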

How the data were processed

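The deposited values are linear signal intensities, 1 per probeset and array. The submitters' processing notes name MAS5 and GCOS 1.0 as the software. The trimmed mean signal was 250.1 on each array, so arrays had been scaled alike. The scaling target is not given in the sources used here. Precision is limited by there being 4 arrays.

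Here 124 control probesets were left out, signals under 1 were set to 1 (2547 of 95996 values), and log2 was taken. Probesets whose mean log2 signal fell below the 40th percentile were dropped, and the other 14399 were fitted with limma 3.58.1 in R 4.3.3 (lmFit, then eBayes with trend, pig as block, two-sided, Benjamini-Hochberg over all probesets). With the block, 1 residual degree of freedom was left, and moderation added 6.88. The p-values rest on how far the deep minus shallow difference varied between 2 pigs, with 1 culture per pig and depth. Most of the weight in that variance came from moderation over the other probesets. Pairing follows the design, and deviations of same-pig arrays had a correlation of -0.01 across probesets. A gene stands by its brightest probeset with 1 symbol in the platform annotation. The fit was also run on simulated data whose spread was drawn from the fit itself. Those data held no array differences in control ratios or cell type markers, so that run does not bear on them.

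The genes and lists were chosen with earlier results of these data known. List genes are named if past an adjusted p of 0.05, among the 3 largest tested differences of their list, or direct partners of the 10 genes first named. GRB2, FOS, FOSL1, MYC, TGFA, ACTG2, CNN1, PECAM1, CLDN5, SPINT2, FGF1, FGF13 and FGF18 were added after their values were seen. Of the cell type markers named, CDH1, COL1A2, KRT5 and KRT14 were planned by name. The other markers named, apart from PDGFRB, were not. Alternatives changed the block, filter, floor, scaling, trend, choice of probeset and set of arrays.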

Additional observations from a re-analysis of the deposited data

Results flagged for a closer look

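The pigs differed in opposite directions in 16 of 43 tested results, 2 probesets of the 5 genes and 14 of the 35 list genes, each with all signals above the absent controls. Among all 14399 tested probesets the share with opposite directions was 38.6%. The deep minus shallow log2 difference of FGFR1 was 0.73 in pig 1 and -0.24 in pig 2, and that of the second EGFR probeset was 0.54 and -0.097. Among the EGF family AREG had -0.093 and 1.68.

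In the relay STAT3 had 0.97 and -0.23, FRS2 0.49 and -0.15, SHC1 0.11 and -0.48, AKT2 -0.26 and 0.75, AKT1 -0.13 and 0.040, and GRB2 -0.039 and 0.00016. SH3KBP1, of the receptor turnover list, had -0.47 and 0.47. Among the induced genes MYC had -1.65 and 0.50, FOSL1 -1.29 and 0.24, IER3 -0.19 and 1.34, and FOS 0.23 and -0.21. Among the other receptors INSR had -0.43 and 0.75, and TYRO3 -0.85 and 0.050. Each pig gave 1 array per depth, so the difference between the pigs was not tested.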

How the results depend on the processing

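Probesets called numbered 49 (34 higher and 15 lower in deep), 0 with no replicate block (smallest adjusted p = 0.0597), 0 without the filter on dim probesets (1885 and 2246 at an unadjusted p under 0.05), 24 with the filter at the 20th percentile, 96 after quantile normalization and 3 without the trend. The range was 0 to 1597 with 1 array left out, in fits with no pig block and a lone array at a depth that is assumed to vary like the others. It was 172 without the pig 1 shallow array, 1597 without the pig 2 shallow array and 0 without either deep array (1803 and 727 at an unadjusted p under 0.05). The paired fit and the fit without the block give the same differences, and no gene of the 5 was called in either. FGF7 kept a difference of 1.39 to 1.67 over 9 settings with 4 arrays, at adjusted p from 0.0564 to 0.261, and 1.21 to 1.99 with 1 array left out. FGF2 ran from 0.60 to 0.86, and 0.32 to 0.95 with 1 array left out. EGFR ran from 0.31 to 0.47 and FGFR1 from 0.10 to 0.33, but FGFR1 from -0.10 to 0.58 with 1 array left out. PDGFRB turned to -0.061 with both probesets averaged. The median of the 5 genes was 0.31 with all probesets averaged and 0.32 to 0.75 with 1 array left out. STAT3 ran from -0.14 to 0.88 with 1 array left out. The causes were not tested.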
